A study of Mus musculus with 2 samples.

Results

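The 9 genes described here form a group of striatal neuropeptide and DARPP-32 signalling genes. They are Ppp1r1b, which encodes DARPP-32, Prkacb, Penk1 (now Penk), Pdyn, Tac1, Drd2, Adora2a, Rgs9 and Hap1. Prkacb and Hap1 are not in the list of striatal medium spiny neuron genes read below. All 9 were chosen by symbol in the platform's probe annotation. Their signals in the 4 channels and log2 ratios were already known, so their values are given as a description. Of the 9, 8 had a probe, 1 each, and all 8 lay above the blank mean plus 2 SD, the background limit used here, in all 4 channels. The local background around a spot could be far higher, up to 117.3% of the signal for Drd2 in wild type beside the treated pool. Adora2a had no probe under its symbol or a listed synonym and was not analysed here. They are set against the 13635 named genes measured, out of 16446 on the array. Hippocampal RNA was compared on 2 two-colour oligonucleotide arrays. The treated pool came from AtrxdE2 mice, in which the gene of the chromatin remodeller Atrx carries the AtrxΔE2 allele, given TMPyP4, a porphyrin ligand of G-quadruplex DNA, by intraperitoneal injection at 30 mg/kg, 2 times a week from postnatal day 30 to day 90. The untreated pool came from AtrxdE2 mice for which the labels give no treatment, and the pool both were set against came from wild-type mice. Each pool held RNA of 5 mice, and each mutant pool (Cy3) shared its array with wild type (Cy5), so dye and genotype cannot be told apart. The sources used here do not state the age at collection, any vehicle, or whether 1 wild-type pool served both arrays.

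DARPP-32 is a small protein that is abundant in striatal medium spiny neurons. When dopamine D1 receptors or the adenosine receptors encoded by Adora2a raise cyclic AMP, protein kinase A phosphorylates it and turns it into an inhibitor of protein phosphatase 1, and D2 receptors act in the opposite direction. Striatal neurons of the direct pathway carry Tac1 and Pdyn peptides, and those of the indirect pathway carry enkephalin with Drd2 and Adora2a. None of these genes is exclusive to the striatum: in the hippocampus, enkephalin and dynorphin precursors are known from dentate granule cells and interneurons. Fewer cells of a type and less RNA per cell cannot be told apart in such pools.

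Each group is 1 pool on 1 array, so the values below could not be set against a spread between replicates, and no test was made. Median signals above the blank spots over all probes were 79.0 in AtrxdE2+TMPyP4, 64.6 in AtrxdE2, 36.02 in wild type on the array of the treated pool and 42.2 in wild type on the array of the untreated pool. Scanner signals are therefore not comparable between channels as they stand. Below, "signal" is the spot intensity above the blank spots, "level" is the log2 value of a channel after loess and after the average brightness of the arrays was equalized (Aquantile), and "log2 ratio" is the loess-normalized ratio within an array. A gene was counted when it differed by at least 1.5-fold, 0.58 on the log2 scale. Wild type was the only condition on both arrays. Its channels correlated with r = 0.984 across the measured genes. The difference between them had an SD of 0.29 on the log2 scale, and they lay at least 1.5-fold apart in 5.44% of genes.

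Ppp1r1b was lower in each mutant pool than in the wild type on its own array. Its signals were 1774.9 in AtrxdE2+TMPyP4, 2777.5 in AtrxdE2, 1444.7 in wild type beside the treated pool and 3448.3 in wild type beside the untreated pool. Its normalized levels were 10.22, 11.22, 11.10 and 12.12 in the same channels. Across arrays, AtrxdE2 thus lay inside the range of both wild-type channels and only AtrxdE2+TMPyP4 lay below it. That range also holds the difference between arrays, which both channels of a spot can share. The log2 ratio was -0.90 for AtrxdE2 over wild type, with an SD of 0.25 among the 500 genes nearest in signal, and -0.89 (SD 0.25) for AtrxdE2+TMPyP4 over wild type. These were the 8th lowest ratio of all measured genes in each comparison, and their difference, treated over untreated, was 0.017 (SD 0.30). That difference depended on the setting: it was -0.999 from the Cy3 channels alone and 1.17 with the local background. The wild-type level was lower by 1.02 log2 units on the array of the treated pool, which is more than either ratio in size. Against the wild type of the other array, AtrxdE2 had 0.11 and AtrxdE2+TMPyP4 -1.90. With the local background in place of the blank level, the treated pool had -0.057, and with median centring -0.31. Around this spot the local background came to 58.8% of the spot's signal in AtrxdE2+TMPyP4, 35.5% in AtrxdE2, and 71.6% and 15.3% in the wild type beside each. Its part in the ratios was not tested.

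Prkacb, which encodes a catalytic subunit of protein kinase A, was lower in AtrxdE2 alone. Its signals were 650.6 in AtrxdE2+TMPyP4, 218.9 in AtrxdE2, 303.4 in wild type beside the treated pool and 290.8 in wild type beside the untreated pool. The levels were 8.91, 7.88, 8.97 and 8.74 in that order. AtrxdE2 lay below both wild-type channels, which differed by only 0.23, and the treated pool lay between them. The log2 ratio was -0.85 (SD 0.23 among the genes nearest in signal) for AtrxdE2 over wild type, the 10th lowest of all genes, -0.062 (SD 0.21) for AtrxdE2+TMPyP4 over wild type and 0.79 (SD 0.29) for treated over untreated. Among the 8 genes, Prkacb was the one whose ratio passed 1.5-fold under all 7 ways of computing it, from -1.08 to -0.66 for AtrxdE2 over wild type and from 0.65 to 1.05 for treated over untreated. Prkar1b, which encodes a regulatory subunit of the same kinase, had -0.46 in AtrxdE2 over wild type, 0.43 in AtrxdE2+TMPyP4 over wild type and 0.89 in treated over untreated. Prkar2b had -0.31, 0.18 and 0.485 in that order. The other subunit genes measured lay nearer 0: Prkaca, of another catalytic subunit, had -0.049, -0.013 and 0.036. Prkar1a had -0.15, -0.11 and 0.0375, and Prkar2a -0.0026, 0.046 and 0.048.

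The precursor genes went separate ways. Penk1, which encodes proenkephalin, had signals of 1074.9 in AtrxdE2+TMPyP4, 1149.8 in AtrxdE2, 688.9 in wild type beside the treated pool and 1483.9 in wild type beside the untreated pool. Its levels were 9.56, 9.95, 10.08 and 10.92 in that order. Both mutant channels lay below both wild-type channels, AtrxdE2 by a narrow margin, since the wild-type level was lower by 0.84 on the array of the treated pool. The log2 ratio of -0.96 (SD 0.22) for AtrxdE2 over wild type was the 4th lowest of all genes. It was -0.52 (SD 0.23) for AtrxdE2+TMPyP4 over wild type and 0.44 (SD 0.30) for treated over untreated. Against the wild type of the other array the ratios were -0.13 for AtrxdE2 and -1.36 for AtrxdE2+TMPyP4, so that each call depends on the wild-type channel chosen.

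Pdyn, which encodes prodynorphin, and Tac1, the precursor gene of substance P, stayed within 1.5-fold. Pdyn had signals of 586.0 in AtrxdE2+TMPyP4, 482.3 in AtrxdE2, 236.3 in wild type beside the treated pool and 291.1 in wild type beside the untreated pool. Its levels of 8.78, 8.83, 8.65 and 8.76 spanned the narrowest range of the 8 genes. The log2 ratios were 0.071 (SD 0.23) for AtrxdE2 and 0.13 (SD 0.21) for AtrxdE2+TMPyP4 over wild type, both inside the spread of genes of like signal. The local background around this spot was 81.6% of the signal in AtrxdE2+TMPyP4 and 99.5% in the wild type beside it, and with it the treated pool had 0.82 over wild type. Tac1 had signals of 666.2 in AtrxdE2+TMPyP4, 354.7 in AtrxdE2, 266.0 in wild type beside the treated pool and 185.4 in wild type beside the untreated pool. Its levels were 8.95, 8.45, 8.81 and 8.21, so that both channels of the treated array were above both of the other array. The log2 ratios were 0.24 (SD 0.24) for AtrxdE2 and 0.14 (SD 0.21) for AtrxdE2+TMPyP4 over wild type. The wild-type level itself was higher by 0.60 on the array of the treated pool, and against the wild type of the other array the treated pool had 0.73.

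Drd2, which encodes the inhibitory dopamine D2 receptor, had signals of 40.5 in AtrxdE2+TMPyP4, 64.3 in AtrxdE2, 43.3 in wild type beside the treated pool and 47.1 in wild type beside the untreated pool. The limit for calling a spot above background was 6.53, 6.59, 1.84 and 2.46 in those channels. The levels were 6.37, 6.79, 6.87 and 6.86, and the wild-type channels differed by 0.007, the least of the 8 genes. AtrxdE2+TMPyP4 lay below the other 3 channels. The log2 ratio was -0.071 (SD 0.15) for AtrxdE2 over wild type, -0.50 (SD 0.17) for AtrxdE2+TMPyP4 over wild type and -0.43 (SD 0.21) for treated over untreated. With the offset of 50 added before taking logs lowered to 10 and all else kept, the ratios over wild type were -0.12 for AtrxdE2 and -0.86 for AtrxdE2+TMPyP4. The authors' deposited table, whose values matched the plain ratio above the blank mean less a constant, gave -0.20 and -1.27. With the local background, which exceeded the spot in wild type beside the treated pool (117.3% of its signal), the treated pool had 0.14.

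Rgs9 encodes a striatum-enriched regulator of G protein signalling that shortens responses of D2 and opioid receptors. Its signals were 137.0 in AtrxdE2+TMPyP4, 536.8 in AtrxdE2, 135.9 in wild type beside the treated pool and 329.5 in wild type beside the untreated pool. The levels were 7.19, 8.97, 7.95 and 8.92 in that order. Both channels of the treated array were thus low and both of the other array high, with the treated pool the lowest. The log2 ratio was 0.049 (SD 0.22) for AtrxdE2 over wild type, -0.76 (SD 0.22) for AtrxdE2+TMPyP4 over wild type, the 18th lowest of all genes, and -0.81 (SD 0.30) for treated over untreated. The Cy3 channels alone differed by -1.78, the 4th lowest of all genes, and the wild-type channels by -0.97. Against the wild type of the other array, AtrxdE2 had 1.02 and AtrxdE2+TMPyP4 -1.73, so that the AtrxdE2 ratio depends on the wild-type channel chosen. The treated ratio over wild type was -1.16 in the authors' deposited table, -0.54 with median centring and -0.16 with the local background.

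Hap1 encodes a huntingtin-associated protein that links cargo to microtubule motors, and was lower in the treated pool. It had signals of 881.5 in AtrxdE2+TMPyP4, 1483.0 in AtrxdE2, 786.2 in wild type beside the treated pool and 1064.2 in wild type beside the untreated pool. Its levels were 9.28, 10.30, 10.25 and 10.46, with AtrxdE2 inside the wild-type range and AtrxdE2+TMPyP4 well below it. The log2 ratio was -0.15 (SD 0.23) for AtrxdE2 over wild type, -0.97 (SD 0.23) for AtrxdE2+TMPyP4 over wild type and -0.81 (SD 0.30) for treated over untreated. The second of these was the 5th lowest of all genes, and against the wild type of the other array it was -1.18. It passed 1.5-fold under 6 of 7 ways of computing it, the exception being median centring at -0.44.

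**Figure D1:**
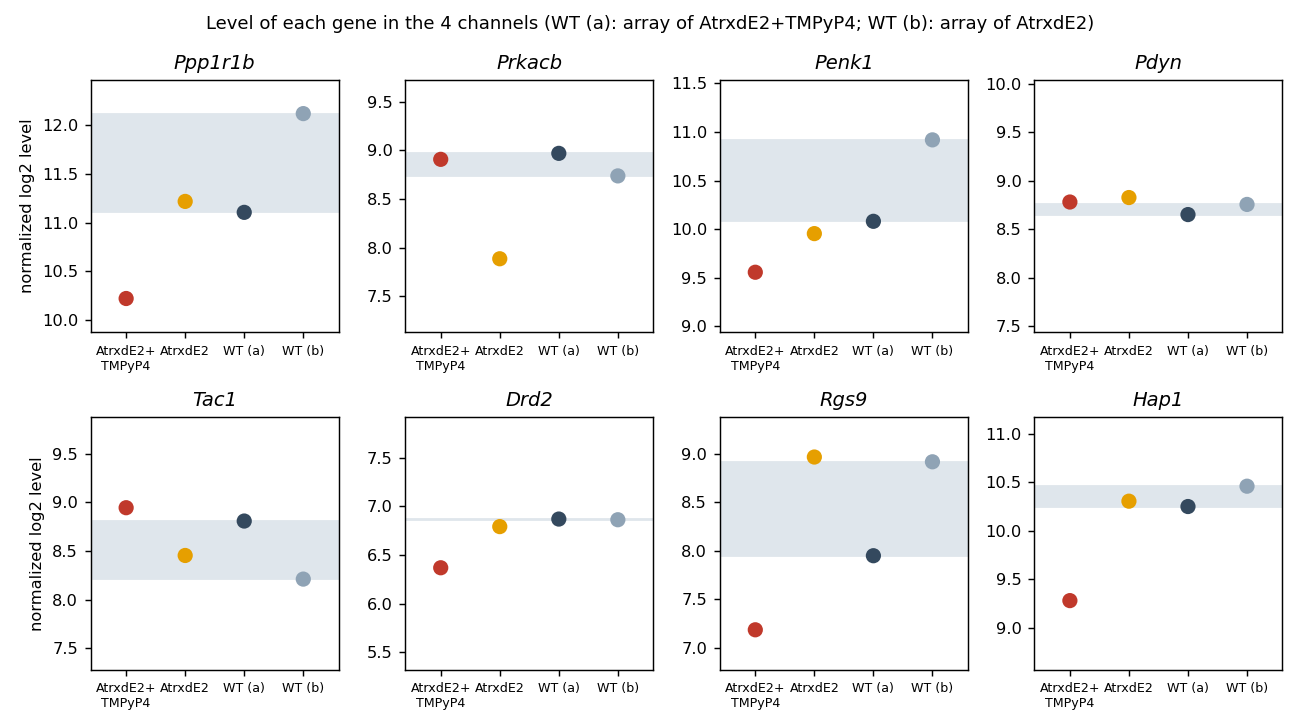
Normalized log2 level of each of the 8 measured genes (y axis, the same span in every panel) in AtrxdE2+TMPyP4, AtrxdE2 and wild type on the array of the treated (a) and untreated (b) pool, 1 point per channel. The shaded band spans both wild-type channels and so also holds the difference between arrays. Prkacb, and by a narrow margin Penk1 and Drd2, are below it in AtrxdE2. Ppp1r1b, Penk1, Drd2, Rgs9 and Hap1 are below it in AtrxdE2+TMPyP4.

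Counted by the 1.5-fold rule, 3 of the 8 genes (Ppp1r1b, Penk1 and Prkacb) were lower in AtrxdE2 than in wild type and 0 were higher, against 0.66% and 0.44% of all measured genes. In AtrxdE2+TMPyP4 over wild type, 3 (Ppp1r1b, Rgs9 and Hap1) were lower and 0 higher, against 0.462% and 0.902% of all genes. In treated over untreated AtrxdE2, 2 (Rgs9 and Hap1) were lower and 1 (Prkacb) was higher, against 1.14% and 2.1%. The genes were chosen with these contrasts known, so the counts describe the choice. Ppp1r1b alone was counted in both comparisons over wild type, which may share 1 wild-type pool. The median log2 ratio of the 8 was -0.11 for AtrxdE2 over wild type, with a median of -0.0028 over all genes. It was -0.51 for AtrxdE2+TMPyP4 over wild type, against 0.0095 for all genes, and -0.045 for treated over untreated, against 0.015. With the normexp and loess values, no gene of the 8 reached 2-fold in any of these comparisons. In the authors' value table, Penk1 (-1.02) and Prkacb (-1.06) did in AtrxdE2 over wild type. Hap1 (-1.01), Rgs9 (-1.16) and Drd2 (-1.27) did in AtrxdE2+TMPyP4 over wild type, and Rgs9 (-1.21) and Drd2 (-1.07) in treated over untreated. The share of all genes past 2-fold was not counted for the authors' values. Centring by the median in place of loess left the 3 genes lower in AtrxdE2, where 0.15% of all genes were lower. In AtrxdE2+TMPyP4 over wild type this centring left 0 of the 8 past 1.5-fold, where 15.4% of all genes passed. It also changed the split over all genes: of genes past 1.5-fold, 94.7% were higher in AtrxdE2, against 40% with loess, and 99.4% were higher in AtrxdE2+TMPyP4, against 66.1%. For treated over untreated the shares were 91.4% and 64.9%.

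**Figure D2:**
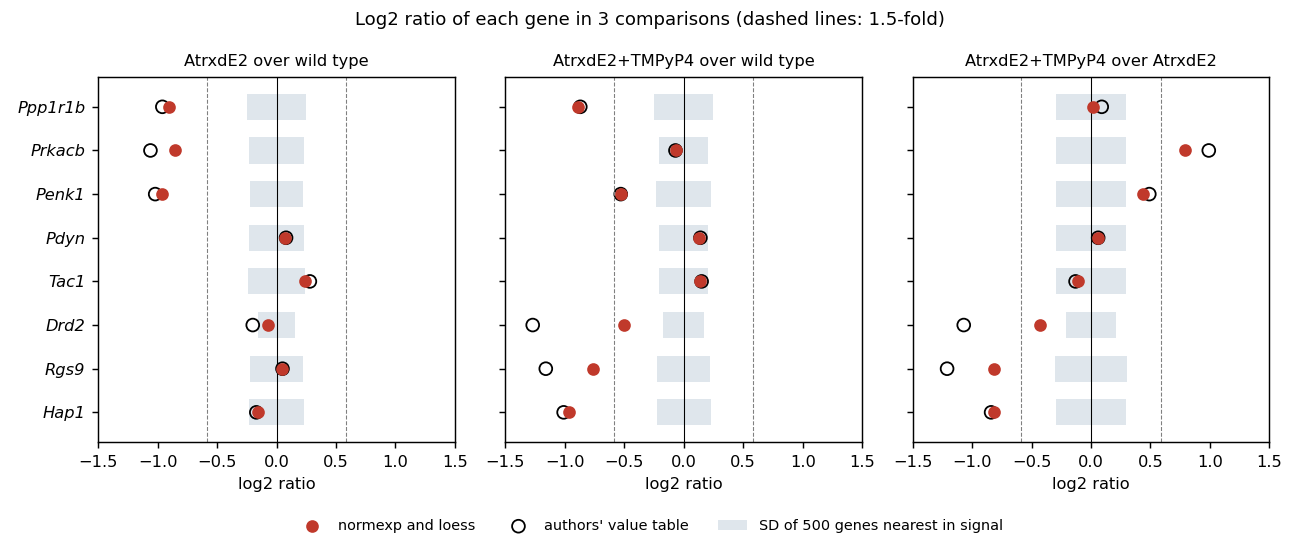
Log2 ratios (x axis) of the 8 genes in 3 comparisons, from the normexp and loess values (filled) and from the authors' value table (open). Bars show plus and minus 1 SD of the 500 genes nearest in signal, and Drd2 and Rgs9 are the genes for which the authors' ratios lie farthest from the filled points, at -1.27 and -1.16 in AtrxdE2+TMPyP4 over wild type.

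The 4 channels also allow the arrays to be compared channel by channel. The wild-type channels lay at least 1.5-fold apart for 4 of the 8 genes, Ppp1r1b, Penk1, Tac1 and Rgs9, where 5.44% of all genes did. The Cy3 channels alone were at least 1.5-fold lower in treated than in untreated AtrxdE2 for 3 of the 8 (Ppp1r1b, Rgs9 and Hap1) and higher for 1 (Prkacb), against 5.68% and 5.93% of all genes. Across the 13635 measured genes the difference between arrays in Cy3 correlated with that in Cy5 with r = 0.746. The points share the spot and the array, since both channels are read from the same spot. Of the 742 genes whose wild-type channels lay at least 1.5-fold apart, 737 differed in the same direction in Cy3. For Ppp1r1b the differences were -0.999 in Cy3 and -1.02 in wild type, and for Tac1 0.49 and 0.60. For these genes both channels of the array moved together by nearly the same amount. For Hap1 they were -1.02 and -0.21, for Prkacb 1.02 and 0.23, and for Drd2 -0.42 and 0.007, so that these genes differed mainly in Cy3. Both mutant channels were below both wild-type channels for 2 of the 8 genes, Penk1 and Drd2, against 9.06% of all genes, and above both for 1, Pdyn, against 12.8%. Whether spots, arrays or the wild-type pools differed was not tested.

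**Figure D3:**
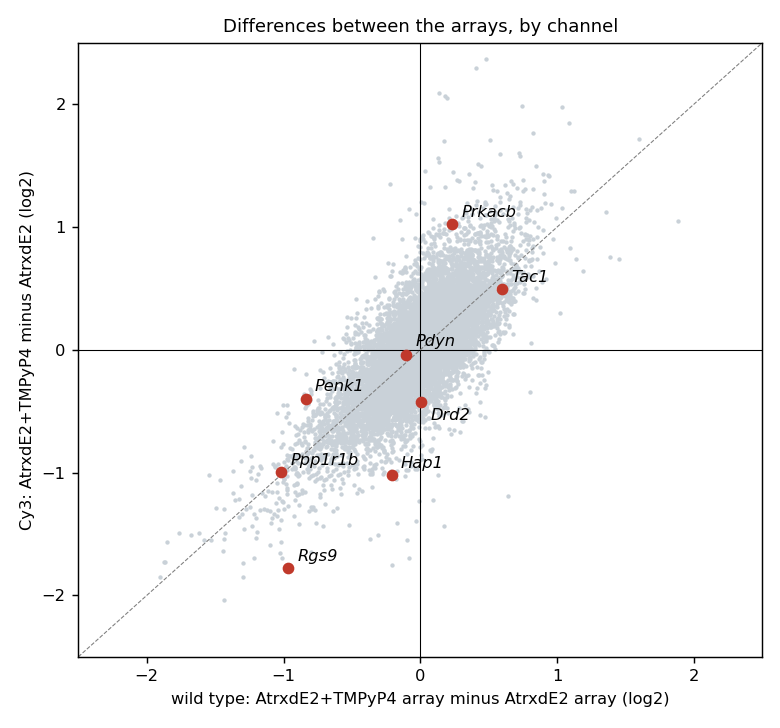
Difference between the arrays in the wild-type channel (x axis) and in the Cy3 channel, AtrxdE2+TMPyP4 minus AtrxdE2 (y axis), in log2 units, for the measured genes (grey; only Ttr lies outside the axes) and the 8 genes described here (red). Ppp1r1b and Tac1 lie near the dashed line of equal change, while Hap1, Prkacb and Drd2 lie away from it.

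Promoters were read from RefSeq (GRCm38.p6), from 250 bases before to 50 after each annotated start, for 6 of the 9 genes with 10 starts in all. Ppp1r1b, Penk1 and Adora2a had no entry. A pair of motifs was searched on both strands: the G-quadruplex motif (4 runs of at least 3 G with 1 to 7 bases between them), because TMPyP4 binds such structures, and TGACG, the core letters of the site of CREB, a protein kinase A target. The G-quadruplex motif was found at 2 of the 10 starts, the first start of Prkacb and that of Drd2, and in 18.6% of the 32851 promoters in the table. TGACG, or its reverse complement CGTCA, was found at 4 of the 10, against 20.8% of all promoters. The 4 belong to Prkacb, Tac1 and Hap1, and both starts of Hap1 hold the same CGTCA, since their windows overlap. The motifs did not overlap. The promoters shown are those of the 4 genes in the table that were lowest in a mutant pool, with motif letters in capitals.
Prkacb, chr3:146812897-146813196, minus strand: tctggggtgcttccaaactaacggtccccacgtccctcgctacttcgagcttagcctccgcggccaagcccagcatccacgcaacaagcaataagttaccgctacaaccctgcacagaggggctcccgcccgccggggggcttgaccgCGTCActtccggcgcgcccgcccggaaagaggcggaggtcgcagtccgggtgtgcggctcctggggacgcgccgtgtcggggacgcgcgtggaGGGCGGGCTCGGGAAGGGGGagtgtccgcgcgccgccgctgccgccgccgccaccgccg
Drd2, chr9:49340153-49340452, plus strand: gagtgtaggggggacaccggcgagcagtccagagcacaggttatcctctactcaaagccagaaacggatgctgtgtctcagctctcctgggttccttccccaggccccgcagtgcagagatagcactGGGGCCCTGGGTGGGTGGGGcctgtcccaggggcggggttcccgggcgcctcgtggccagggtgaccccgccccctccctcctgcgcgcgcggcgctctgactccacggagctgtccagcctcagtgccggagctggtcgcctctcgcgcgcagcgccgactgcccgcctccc
Hap1, chr11:100356092-100356391, minus strand: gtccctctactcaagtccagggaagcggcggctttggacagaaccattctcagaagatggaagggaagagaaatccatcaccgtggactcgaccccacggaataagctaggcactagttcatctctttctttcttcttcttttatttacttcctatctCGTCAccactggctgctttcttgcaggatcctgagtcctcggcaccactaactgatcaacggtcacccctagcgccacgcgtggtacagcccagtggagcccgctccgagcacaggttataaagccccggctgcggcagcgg
Rgs9, chr11:109298132-109298431, minus strand: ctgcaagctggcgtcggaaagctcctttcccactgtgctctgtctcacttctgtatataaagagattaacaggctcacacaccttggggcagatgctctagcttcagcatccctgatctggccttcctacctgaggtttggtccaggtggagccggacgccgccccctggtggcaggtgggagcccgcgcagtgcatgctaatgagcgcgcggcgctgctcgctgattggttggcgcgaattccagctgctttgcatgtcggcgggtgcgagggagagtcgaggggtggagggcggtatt
The capitals mark the G-quadruplex motif and CGTCA in Prkacb, the G-quadruplex motif in Drd2 and CGTCA in Hap1. Rgs9 held neither in this window. A match describes the letters and is no evidence of binding.

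Beyond the genes themselves, the surrounding pathway was read from 9 lists chosen with earlier results known. Of 36 medium spiny neuron genes, 31 had a probe and 29 were measured. In AtrxdE2+TMPyP4, 24 of the 29 were below wild type, 4 of them by at least 1.5-fold and 0 above by that much, with a median of -0.28. Over all genes, 47.2% were below 0 and 0.462% were lower by at least 1.5-fold. Rxrg, which encodes a retinoid X receptor, had -1.17 (signals of 147.4 in AtrxdE2+TMPyP4 and 201.2 in wild type). Drd1a, now Drd1, had -0.60 (109.3 and 98.9), with wild-type levels 0.68 apart between the arrays. At the upper end stood Tac1 and Pdyn. Without the 6 genes of this group, the median of the other 23 was -0.26, with 20 below 0. In AtrxdE2 over wild type, 19 of 29 were below 0 with a median of -0.071, and 2 (Penk1 and Ppp1r1b) passed 1.5-fold. Over all genes 50.7% were below 0 and 0.66% were lower by at least 1.5-fold in that comparison. Of the other 23 list genes, 0 passed 1.5-fold. The transcription factor genes Bcl11b, at 0.28, and Foxp1, at 0.25, were highest. In treated over untreated, Rgs9, Rxrg (-0.74) and Bcl11b (-0.65) were lower by at least 1.5-fold, against 1.14% of all genes.

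In the DARPP-32 and protein kinase A cascade, 20 of 26 genes were measured. Ppp1r1b and Prkacb were counted as lower in AtrxdE2 and Ppp1r1b in AtrxdE2+TMPyP4, with 0 higher in either. Over all genes 0.66% and 0.462% were lower and 0.44% and 0.902% higher by at least 1.5-fold. The medians of the list were -0.042 in AtrxdE2 and -0.031 in AtrxdE2+TMPyP4. The calcineurin subunit gene Ppp3cb was highest in both, at 0.26 and 0.53. Akap12, an anchoring protein gene, had 0.20 in AtrxdE2, and Arpp21, a cyclic AMP-regulated phosphoprotein gene, -0.43 in AtrxdE2+TMPyP4. Prkar1b and Prkacb were the 2 genes higher in treated than in untreated AtrxdE2 by at least 1.5-fold, against 2.1% of all genes. Of the adenylyl cyclase, G protein and phosphodiesterase genes, 23 of 24 were measured, with medians of -0.028 in AtrxdE2 and -0.10 in AtrxdE2+TMPyP4. Of the 23, 0 passed 1.5-fold over wild type in either pool, which is near the 1.10% and 1.36% of all genes that did. Gnb5, the G protein subunit that pairs with Rgs9, had -0.57 and Pde1b -0.45 at the lower end in AtrxdE2, with Gnao1 at 0.40 and Pde4a at 0.26. In AtrxdE2+TMPyP4, Pde2a had -0.56 and Adcy5, the main striatal cyclase, -0.45, with Gnai1 at 0.34 and Gnb1 at 0.26. Treated over untreated, Pde2a had -0.73, Gnb5 0.78 and Gnai1 0.68.

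All 17 neuropeptide precursor genes with a probe, of 18, were measured, with medians of 0.055 in AtrxdE2 and -0.0086 in AtrxdE2+TMPyP4 over wild type. Over all genes 1.10% and 1.36% passed 1.5-fold in these comparisons, and 3.23% in treated over untreated. Penk1 was the 1 precursor counted in AtrxdE2, where Pnoc followed with -0.32, and Cort with 0.39 and Adcyap1 with 0.32 were highest. In AtrxdE2+TMPyP4, Grp, the gastrin-releasing peptide gene, was lower (-0.78) and Adcyap1, which encodes PACAP, was higher (0.95). Cart, now Cartpt, was the next lowest in that pool at -0.33. Npy had 0.51 there, and Adcyap1 was 0.62 higher in treated than in untreated AtrxdE2. Of 17 peptide receptor genes 13 were measured, with medians of -0.039 and 0.083, and the mu opioid receptor gene Oprm1 was among those not above background in every channel. The cholecystokinin receptor gene Cckbr had -0.76 in AtrxdE2 and 0.83 in treated over untreated, and was the 1 receptor gene past 1.5-fold. Adcyap1r1 had -0.23, Npy1r 0.19 and Oprl1 0.26 in AtrxdE2, and Npy2r -0.32, Oprk1 -0.13, Npy5r 0.22 and Npy1r 0.37 in AtrxdE2+TMPyP4. Adcyap1r1 was dim, with signals of 7.9 in AtrxdE2 and 13.1 in the wild type beside it. The background limits there were 6.59 and 2.46, and the authors' value table gave -1.38. All 10 peptide processing genes were measured, with 8 below 0 in AtrxdE2 (median -0.11) and 3 below 0 in AtrxdE2+TMPyP4 (median 0.20). Over all genes 50.7% and 47.2% were below 0. The convertase gene Pcsk1 had 0.60 in AtrxdE2+TMPyP4, the only processing gene counted over wild type, and the secretogranin gene Scg2 had 0.56. Both passed 1.5-fold in treated over untreated, at 0.66 and 0.85. The carboxypeptidase gene Cpe had -0.41 in AtrxdE2 and -0.38 in AtrxdE2+TMPyP4, the convertase inhibitor gene Pcsk1n -0.50 in AtrxdE2+TMPyP4, and Scg2 -0.29, Pam 0.36 and Chgb 0.039 in AtrxdE2.

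Among 9 dopamine and adenosine receptor genes, 6 were measured, with medians of -0.049 in AtrxdE2 and -0.069 in AtrxdE2+TMPyP4. Drd1a was lowest in both, at -0.32 and -0.60, followed by Drd2, while Drd5 had 0.24 in AtrxdE2 and Drd4 0.097 in AtrxdE2+TMPyP4. The wild-type level of Drd1a was higher by 0.68 on the array of the treated pool, which is more than either ratio in size. Adora3 stood at -0.013 and -0.012. Of 19 RGS proteins and their partners, 18 were measured, with medians of 0.0038 in AtrxdE2 and 0.015 in AtrxdE2+TMPyP4. Rgs9 in AtrxdE2+TMPyP4 was the 1 gene counted over wild type. Over all genes 1.10% passed 1.5-fold in AtrxdE2 over wild type and 1.36% in AtrxdE2+TMPyP4. Rgs11, of the same R7 subfamily as Rgs9, had -0.54 in AtrxdE2+TMPyP4 and -0.72 in treated over untreated, whereas Rgs7 of that subfamily had 0.49 in AtrxdE2+TMPyP4. Rgs20 had 0.34 there, and in AtrxdE2 Rgs5 had -0.33, Rgs17 0.29 and the anchor gene D13Bwg1146e, now Rgs7bp, 0.31. Of 17 Hap1 partners 15 were measured, with medians of -0.02 in AtrxdE2 and -0.018 in AtrxdE2+TMPyP4. Hap1 in AtrxdE2+TMPyP4 was the 1 gene counted over wild type, against the same shares of all genes. The kinesin gene Kif5c had -0.33 in AtrxdE2, 0.28 in AtrxdE2+TMPyP4 and 0.61 in treated over untreated. App had -0.20, Kif5b 0.25 and Bdnf 0.32 in AtrxdE2, and Ahi1 -0.42 and Bdnf 0.41 in AtrxdE2+TMPyP4.

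Markers of other cells and regions were read beside these values. Hippocampal neuron markers, 14 measured of 15 with a probe, had medians of -0.060 in AtrxdE2 and 0.012 in AtrxdE2+TMPyP4 over wild type. Of the 14, 0 were past 1.5-fold, near the 1.10% and 1.36% of all genes that were. Fibcd1 was above background in 3 of 4 channels. Of the striatal genes with a probe, 29 of 31 were above background in all 4 channels, and Isl1 and Six3 in 3. The summed signal of the 29 was 12385.8 in AtrxdE2+TMPyP4, 13687.8 in AtrxdE2, and 7708.6 and 11404.4 in the wild type beside each. Since signals are not comparable between channels, the mean normalized level is given too: 7.61, 7.86, 7.92 and 8.001 in that order. Choroid plexus markers, 7 measured of 8, passed 1.5-fold upward in AtrxdE2+TMPyP4 over wild type in 7 of 7 genes, with a median of 1.74. In AtrxdE2 over wild type 1 of the 7 did, Ttr at 1.59, with a median of 0.029. Over all genes 0.902% and 0.44% passed 1.5-fold upward in these comparisons. The summed signal of the 7 was 62315.6 in AtrxdE2+TMPyP4, 477.7 in AtrxdE2, and 270.3 and 113.4 in the wild type beside each. Ttr alone made up 60791.5, 352.6, 219.4 and 44.3 of these sums, and the mean normalized levels of the 7 were 8.95, 6.50, 6.62 and 6.25. Oligodendrocyte markers were below 0 in 7 of 7 genes in AtrxdE2 and in 6 of 7 in AtrxdE2+TMPyP4, with 2 and 4 past 1.5-fold. Over all genes 50.7% and 47.2% were below 0, and 0.66% and 0.462% were lower by at least 1.5-fold. The summed signal of the oligodendrocyte markers was 20652.0 in AtrxdE2+TMPyP4, 12968.4 in AtrxdE2, and 13681.7 and 14099.5 in the wild type beside each. Their mean normalized levels were 10.63, 10.41, 11.11 and 11.03, with both mutant pools below both wild-type channels. Interneuron markers had medians of -0.073 in AtrxdE2 and -0.026 in AtrxdE2+TMPyP4. In the treated pool 7 of 11 were below 0, from Slc32a1 at -0.37 to Pvalb at 0.87. Neocortical markers had medians of -0.064 and -0.051. In the treated pool 3 of 6 were below 0, from Cutl1, now Cux1, at -0.27 to 6330527O06Rik, now Lamp5, at 0.97. Thalamus and habenula markers had medians of -0.061 and 0.23, with Prkcd at -0.79 and Rora at 0.55 in the treated pool, and Tcf7l2 was not above background in any channel. The part of these cells and regions in the values of the striatal genes was not tested.

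Genes with the pattern most like Ppp1r1b were taken by the Euclidean distance between the 4 levels, each gene centred on its own mean. The nearest of 13635 genes was Penk1, at a distance of 0.47, followed by the activity-regulated gene Arc at 0.49, Gas7 at 0.52, Rxrg at 0.53 and Slc25a22 at 0.55. Of the other genes described here, Hap1 ranked 22nd at 0.66, Rgs9 69th at 0.77, Drd2 792nd at 1.03 and Pdyn 6403rd at 1.36. Prkacb, 12747th at 1.74, and Tac1, 13294th at 1.90, were among the genes least like it. The likeness rests on 4 channels of 2 arrays, which hold the difference between arrays described above. Arc had log2 ratios of -0.44 in AtrxdE2 and -0.39 in AtrxdE2+TMPyP4 over wild type, and Gas7 -0.62 and -0.37. Of the 5, only Penk1 and Gas7 passed 1.5-fold in AtrxdE2, and only Rxrg did in AtrxdE2+TMPyP4.

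**Figure D4:**
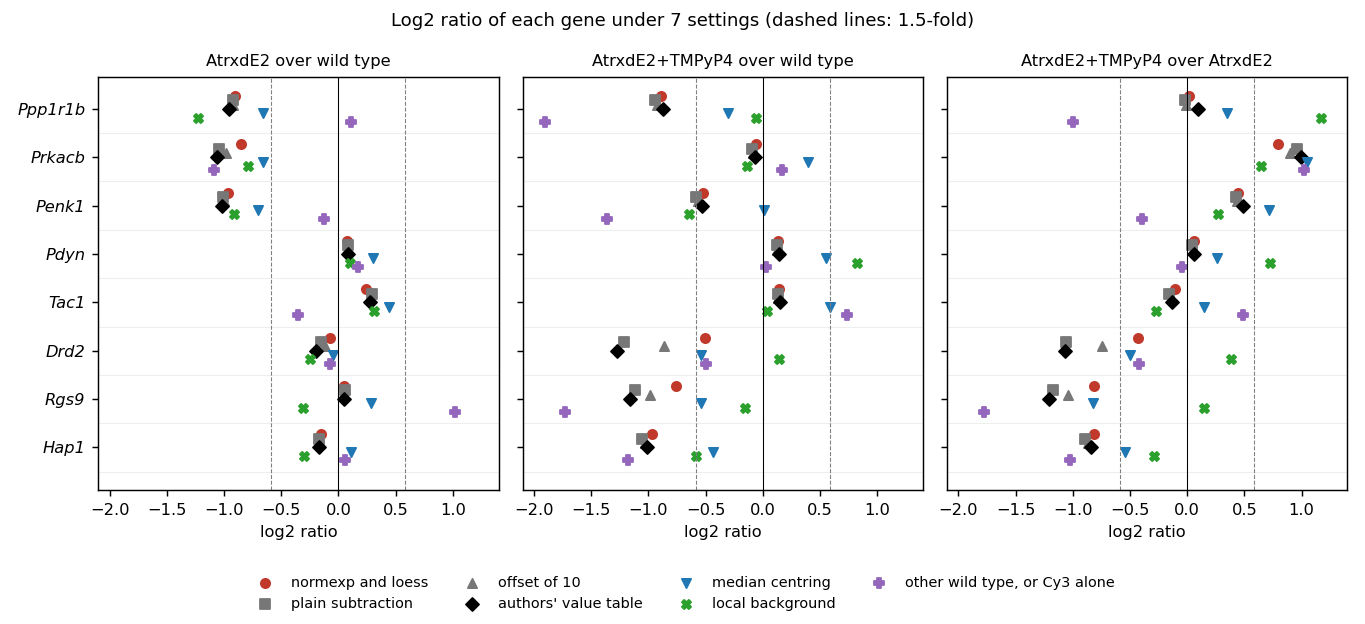
Log2 ratios (x axis) of the 8 genes in 3 comparisons under 7 ways of computing them, including the local background, median centring and the wild type of the other array (for treated over untreated, the Cy3 channels alone). Prkacb keeps to one side of the 1.5-fold lines in the left and right panels, whereas Ppp1r1b ranges from -1.23 to 0.11 in AtrxdE2 and from -1.90 to -0.057 in AtrxdE2+TMPyP4 over wild type.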

How the data were processed

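Per the file headers, the deposited scanner tables hold the median spot intensity and local background intensity in Cy5 and Cy3, merged from 3 gains. Per the labels, the authors' value table holds normalized log2 ratios, mutant pool over wild type pool. Set against the scanner values, 99.99% of its values on each array equalled, within 0.01, the log2 ratio of Cy3 over Cy5 above the blank mean minus a constant (0.65 and 1.17), which settles scale and direction. Its column medians were 0. The software behind both is not given in the sources used here.

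Of 27456 spots, 2736 were blank and 3982 blank, empty or control. The other 23474 spots, of 23473 distinct probes, were corrected by normexp with an offset of 50 on the blank mean (trimmed by a share of 0.05 at each end) and by loess (limma 3.58.1, R 4.3.3), without control spots. Levels by channel followed Aquantile normalization. Probes were measured when above the blank mean plus 2 SD in all 4 channels. The annotation names 1 gene for 16631 probes and none for 6842, and probes of 1 gene were averaged. Of 16446 symbols, 3883 were updated through a synonym in RefSeq's GRCm38.p6 gene table. The main normexp and loess step was tested by multiplying the Cy3 signal above blank of randomly drawn probes of these arrays by known folds. The other settings were not tested in this way. The offset pulls ratios of dim probes toward 0.

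The genes and lists were chosen with earlier results of these data known. Besides the 8 genes with a probe, the text names from each list the 2 genes at each end of each comparison over wild type and those past 1.5-fold, and the 5 genes nearest to Ppp1r1b. Oprm1, Prkaca, Prkar1a, Prkar2a, Prkar2b and the single marker genes of other cells and regions were chosen after their values were seen. The number of arrays limits the precision. Alternatives were other background steps and offsets, median centring, the authors' values, other probe filters and the other wild-type channel.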

Additional observations from a re-analysis of the deposited data

How the results depend on the processing

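The probe filters and the rule for several probes cannot move a gene with 1 measured probe. Under the 6 other settings, 106 of 144 values of single genes moved by less than the SD of the wild-type difference among genes of like signal and 38 by more. The sign changed in 18 of the 144, 8 of them with the other wild type or the Cy3 channels alone, and 4 each with the local background and median centring. For 2 of the 18 the value had been past 1.5-fold: Ppp1r1b in AtrxdE2 over wild type was 0.11 against the wild type of the other array, and Rgs9 in treated over untreated was 0.15 with the local background. Others were Penk1 in treated over untreated (0.44, and -0.40 from the Cy3 channels alone) and Drd2 in the same comparison (-0.43, and 0.38 with the local background). The cause was not tested. The median over the 8 genes in AtrxdE2+TMPyP4 over wild type (-0.51) was -0.099 with the local background, -0.15 with median centring and -0.84 against the other wild type. In treated over untreated (-0.045) it was 0.33 with the local background and -0.41 from the Cy3 channels alone. The median wild-type difference (-0.16) was -0.59 with the local background. At 2-fold, counted for the normexp and loess values only, 0 genes passed in each comparison, where 1.5-fold counted 3. In AtrxdE2+TMPyP4 over wild type, median centring counted 0 and the other wild type 5. Of the 5, Tac1 was higher and Ppp1r1b, Penk1, Rgs9 and Hap1 were lower. Over all genes, 15.4% passed 1.5-fold with median centring and 8.50% with the other wild type, against 1.36%. The other counts lay between 2 and 4 in every comparison, but not always for the same genes or in the same direction. In AtrxdE2 against the other wild type, the 2 counted were Prkacb, lower at -1.08, and Rgs9, higher at 1.02. With the local background, the 3 counted in treated over untreated were Ppp1r1b (1.17), Pdyn (0.72) and Prkacb (0.65), all higher. With median centring the median of all measured genes in AtrxdE2+TMPyP4 over wild type was 0.18. Over all genes, 9.27% passed 1.5-fold in AtrxdE2 over wild type in the authors' value table and 9.05% with plain subtraction, against 1.10%, and 8.28% and 7.83% against 1.36% in AtrxdE2+TMPyP4. The authors' table gave no wild-type difference. Replicates could not be left out, and no paired analysis was possible because each group has 1 sample. Among the 8 genes, Drd2 in AtrxdE2+TMPyP4 over wild type is the value whose size depends most on the offset.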
